A study of Mus musculus with 3 samples.

Results

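The genes described here encode enzymes that write or erase histone marks, proteins that move nucleosomes, and corepressors that bring such enzymes to DNA. They were chosen by gene symbol from 2 deposited gene lists of a DamID study, with earlier results of these data known. The rule took protein-coding entries named Kdm, Setd, Prdm, Mll, Hdac, Ehmt, Chd, Smarc, Arid, Ncor, Sin3 or Ctbp, with Kdm1a, Hdac1 and Hdac2 left out. In all, 41 of the 7612 genes in the lists met the rule, 27 of 5238 in the GFI1 list and 36 of 5327 in the GFI1B list.

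DamID ties the bacterial enzyme DAM to a DNA-binding protein, and DAM then methylates the sequence GATC wherever the fusion comes to rest. AinV18 mouse embryonic stem cells carried a doxycycline-inducible GFI1:DAM, GFI1B:DAM or DAM alone at the Hprt locus, and the DAM control is therefore a line without either fusion. FLK1+ cells from embryoid bodies of day 3.25 were cultured, and haemogenic endothelium, the endothelium that gives rise to blood, was sorted by TIE-2 and c-KIT on day 2 of culture. Each of the 3 samples stands for 2 biological replicates pooled, so no value below has an error between replicates and no test across replicates was possible. Both fusions were expressed from the same inducible site rather than from their own genes. DamID holds no expression, so the labelled cell type could not be checked against its markers. The values are the authors' reads per kb of listed interval, which are not scaled to library size, and library depth is unknown. They rank genes inside a list, and the lists cannot be compared by level. Subtraction of control reads is stated for the GFI1B list, and the header of the GFI1 list does not mention it. Where values come in pairs, GFI1 is first. A gene that is not listed is not thereby shown to be unbound.

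GFI1 and GFI1B are zinc-finger repressors that act through recruited chromatin enzymes, above all the demethylase LSD1 with CoREST and histone deacetylases. Histone methyltransferases and demethylases set marks that open or silence genes. Remodellers of the SWI/SNF (BAF) and CHD families use ATP to move nucleosomes, and the corepressors NCoR, SIN3 and CtBP link DNA-bound repressors to deacetylases.

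Chromatin genes appeared in both lists, and by count the remodellers had larger shares listed than the writers and erasers, a difference that was not tested. RefSeq holds 98 protein-coding genes of these families, counted by symbol and older symbol. The GFI1 list held 27 of these (27.6%, against 18.4% of all protein-coding genes) and the GFI1B list 36 (36.7%, against 19.1%). Both fusions listed 22 of them (22.4%, against 11.0% of all protein-coding genes). Chromatin genes are long, and long genes were listed more often, as the values by length show. Mecom and Kdm7a (once Jhdm1d) were listed for both fusions under symbols outside the rule, and with them the shares were 29 of 98 (29.6%) for GFI1, 38 (38.8%) for GFI1B and 24 (24.5%) for both. Remodellers had 14 of 35 genes listed for GFI1 and 15 for GFI1B. Writers had 8 and 10 of 31, and erasers 5 and 7 of 26. These class counts leave out Mecom among the writers and Kdm7a among the erasers. Classes go by symbol, so that remodellers include every Chd, Smarc and Arid gene, and Prdm genes are 15 of the 31 writers. Of these 15, the GFI1 list held 3 and the GFI1B list 5 under symbols of the rule, and Mecom, also among the 15, was in both lists besides. Without Prdm, Arid3 and Arid5 genes, 5 writers were listed for each fusion, and 11 remodellers for GFI1 and 12 for GFI1B. Each class then held fewer genes, so these counts are not out of 31 and 35. Those writers were 3 and 3 of 9 Setd, 1 and 1 of 5 Mll, and 1 and 1 of 2 Ehmt genes. Of the remodellers, 4 and 4 of 10 Chd genes and 4 and 5 of 15 Smarc genes were listed. Corepressors had 0 of 6 for GFI1 and 4 for GFI1B. Median gene length was 60.7 kb for remodellers, 60.4 kb for writers, 49.0 kb for erasers and 96.7 kb for corepressors.

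**Figure D1:**
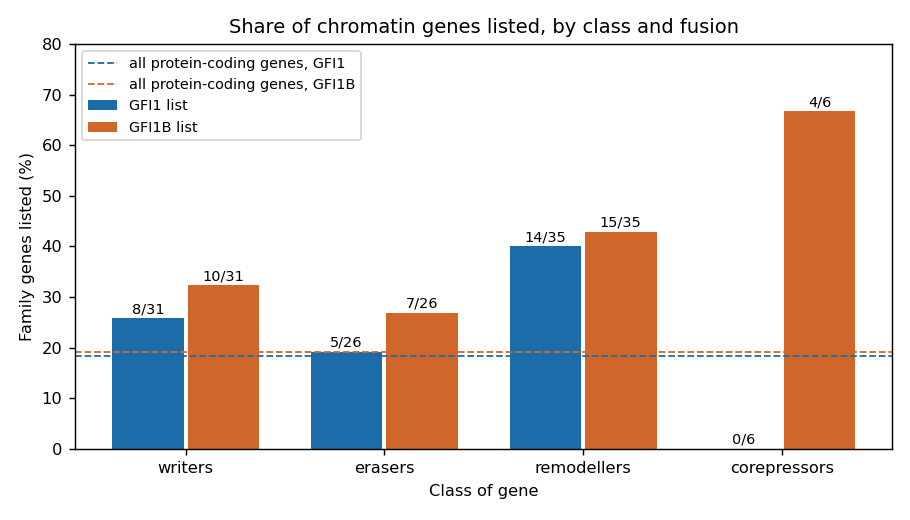
Bars give the percent of family genes in RefSeq that were listed for GFI1 (blue) or GFI1B (orange), by class, with the number listed over the number of genes above each bar. Mecom, a writer, and Kdm7a, an eraser, count as not listed here, though both were listed under symbols outside the rule. Dashed lines give the percent of all protein-coding genes listed (18.4% and 19.1%), and the corepressors, with 0 of 6 and 4 of 6, show the widest gap between the fusions in count of genes listed relative to class size.

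DAM can mark only GATC, so the start regions of some of the strongest listed members are shown with the sites they hold. The 250 bases before the RefSeq start (GRCm38.p6) of the strongest remodeller in both lists, the strongest eraser of the GFI1 list and the strongest corepressor of the GFI1B list are given 5′ to 3′ on the gene's strand, with GATC in capitals.
Arid3b (chr9:57836780-57837029, minus strand): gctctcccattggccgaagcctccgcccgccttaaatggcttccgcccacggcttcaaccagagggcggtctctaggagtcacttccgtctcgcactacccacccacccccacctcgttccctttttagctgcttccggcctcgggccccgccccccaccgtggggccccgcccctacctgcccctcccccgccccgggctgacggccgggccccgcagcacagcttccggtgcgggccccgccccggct
Kdm2b (chr5:122988508-122988757, minus strand): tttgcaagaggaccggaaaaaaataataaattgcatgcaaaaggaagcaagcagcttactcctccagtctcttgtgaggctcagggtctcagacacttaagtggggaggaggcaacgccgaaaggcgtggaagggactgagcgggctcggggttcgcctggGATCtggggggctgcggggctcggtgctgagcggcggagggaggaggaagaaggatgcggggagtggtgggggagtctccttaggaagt
Sin3a (chr9:57071790-57072039, plus strand): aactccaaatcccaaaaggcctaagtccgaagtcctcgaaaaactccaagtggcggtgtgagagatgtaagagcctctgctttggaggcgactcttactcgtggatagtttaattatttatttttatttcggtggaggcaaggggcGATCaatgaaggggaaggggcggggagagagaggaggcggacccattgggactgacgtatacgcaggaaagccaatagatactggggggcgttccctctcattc
Arid3b held no GATC in this window, while Kdm2b and Sin3a held 1 each. The windows of Mll3 and Prdm15, the strongest writers of the GFI1 and GFI1B lists, held no GATC and are not shown. Because the intervals are on mm9, it is not known whether any of them covers these windows.

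Over the RefSeq windows that run from 250 bases before to 50 after the start, promoters of 32 of the 41 members were present, 48 windows in all. GATC, which reads the same on both strands, was found in 19 of them (39.6%), against 46.6% of 21263 windows of protein-coding genes. AATC, the core that GFI1 proteins recognise, searched on both strands, was found in 26 (54.2%), against 70.8%. The letters AAATCAC, which contain that core, were in 0 of the 48 windows and in 2.88% of all windows. In 58 windows of family genes not listed under the rule, GATC was in 46.6%, AATC in 65.5% and AAATCAC in 1.72%. Some genes have several windows, and no difference was tested. These matches are descriptions of letters and not of binding sites.

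Among the writers, 7 genes were listed for both fusions, 1 for GFI1 alone and 3 for GFI1B alone. Mll3 (now Kmt2c), which encodes the enhancer-bound H3K4 methyltransferase, led the writers of the GFI1 list with 58.2 reads per kb over 3 intervals, and had 42.4 over 2 in the GFI1B list. Its percentile, the share of genes in a list with reads per kb no higher than its own, was 67.1 for GFI1 and 27.3 for GFI1B. Prdm10, a PR-domain zinc-finger gene, had 55.9 reads per kb with GFI1 and 50.1 with GFI1B. Ehmt1, the gene of the H3K9 methyltransferase GLP, had 54.0 and 43.2. These 3 genes were above the median of all genes in the GFI1 list (48.7 reads per kb) and below it in the GFI1B list (53.6).

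Other writers ranked higher in the GFI1B list. Setd3, a SET-domain gene best known for methylating actin rather than histones, differed the most in rank of all shared members, with percentile 0.5 in the GFI1 list (19.5 reads per kb) and 80.7 in the GFI1B list (80.8). The entries did not rest on the same place, since the GFI1 interval (chromosome 12, 109343238 to 109345138, mm9) and the GFI1B interval (109325348 to 109326548) lay 16.7 kb apart. Setd5, a further SET-domain gene, stood at percentile 38.2 with GFI1 and 58.9 with GFI1B, at 43.9 and 58.9 reads per kb. Its GFI1B intervals both overlapped GFI1 intervals. Prdm6, which encodes a repressor of smooth muscle genes, had 5 GFI1 intervals and 3 GFI1B intervals, at 52.4 and 62.7 reads per kb. Prdm1, which encodes the repressor BLIMP1, was low in both lists, at 33.2 and 37.7 reads per kb, with no overlap between its intervals.

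The writers listed for GFI1B alone were all above that list's median. Prdm15 stood at 84.9 reads per kb, Prdm11 at 73.2 and Setd8 (now Kmt5a), the H4K20 monomethyltransferase gene, at 62.0, each by 1 interval. Setd2, the gene of the enzyme that trimethylates H3K36, was listed for GFI1 alone at 36.0 reads per kb, below that list's median. Of the MLL family, Mll3 was the only gene of 5 to be listed, and Kmt2a, Kmt2b, Kmt2d and Kmt2e were not. Other writers in neither list included Ehmt2, Setd1a, Setd1b, Setd4, Setd6, Setd7, Prdm2, Prdm4, Prdm8, Prdm9, Prdm12, Prdm13, Prdm14 and Prdm16. Mecom, known also as Prdm3, was listed for both fusions under a symbol outside the rule (47.2 reads per kb with GFI1 and 60.6 with GFI1B, 5 intervals each).

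Among the erasers, the demethylase genes Kdm2a, Kdm2b and Kdm5a were listed for both fusions, and each had an interval in common. Kdm2b, whose protein binds CpG islands and brings Polycomb complexes to them, was the strongest eraser of the GFI1 list with 64.1 reads per kb and had 52.0 in the GFI1B list. Of its 3 intervals in each list 1 overlapped, and that interval (chromosome 5, 123443282 to 123444832 for GFI1, mm9) was listed under A930024E05Rik as well. Kdm2a, the related H3K36 demethylase gene, had 55.3 reads per kb with GFI1 and 67.7 with GFI1B, the highest of the erasers there. The GFI1B interval of Kdm2a (chromosome 19, 4332734 to 4334684) lay wholly inside a GFI1 interval. Kdm5a, an H3K4 demethylase gene, stood at 59.0 and 57.9 reads per kb, and its common place was shared over 1442 of 1451 bp (chromosome 6, 120320314 to 120321764 for GFI1).

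Kdm5b, an H3K4 demethylase gene (44.2 reads per kb), and Kdm4c, an H3K9 demethylase gene (45.6), were in the GFI1B list and absent from the GFI1 list. The deacetylase genes among the members, Hdac5, Hdac8 and Hdac9, stood below the median of each list that held them. Hdac2, a class I deacetylase gene that the rule leaves out, stood above it in the GFI1B list, at 84.5 reads per kb (percentile 82.9). Hdac9, a class IIa deacetylase gene, had 36.9 reads per kb with GFI1 and 42.2 with GFI1B. Hdac5, of the same class, was listed for GFI1 alone (40.5), and Hdac8, a class I gene on chromosome X, for GFI1B alone (38.9). Erasers in neither list under a symbol of the rule were Hdac3, Hdac4, Hdac6, Hdac7, Hdac10, Hdac11, Kdm1b, Kdm3a, Kdm3b, Kdm4a, Kdm4b, Kdm4d, Kdm5c, Kdm5d, Kdm6a, Kdm6b, Kdm7a and Kdm8. Kdm7a was listed as Jhdm1d, at 27.4 and 29.0 reads per kb, near the bottom of both lists.

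The 5 highest values among members of the GFI1 list were all of genes classed as remodellers by symbol. The top 2 of them, Arid3b and Arid4b, are in that class by their Arid symbol and are described below by other roles. In the GFI1B list the highest value was of Arid3b and the next of the corepressor gene Sin3a (88.2 reads per kb). The median over listed genes of that list was 52.3 for remodellers and 60.5 for writers. Arid3b, which encodes a DNA-binding ARID protein, led in both lists, with 155 reads per kb in the GFI1 list (percentile 98.2) and 158 in the GFI1B list (percentile 96.8). Both of its GFI1 intervals overlapped GFI1B intervals by 701 bp, their whole width, at 57652998 to 57653698 and 57710798 to 57711498 on chromosome 9 (mm9). The first of them was also listed under Gm17231. Arid4b, which encodes a subunit of the SIN3 deacetylase complex, followed in the GFI1 list at 118 and stood at 83.7 for GFI1B, with 3 intervals in each list and 2 GFI1 intervals overlapping.

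**Figure D2:**
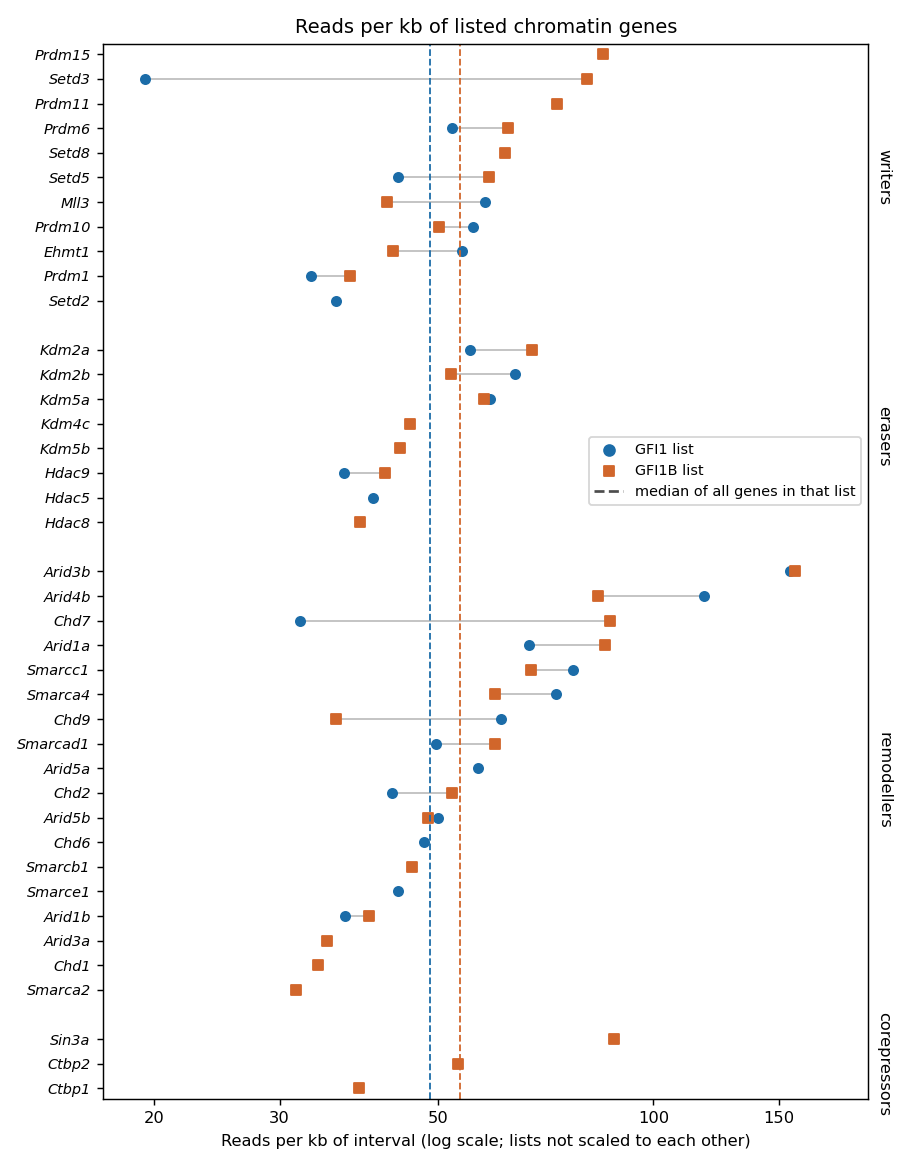
Rows are listed genes, each with its reads per kb of interval on a log axis for the GFI1 list (blue circles) and the GFI1B list (orange squares), grouped by class, and dashed lines at the median of all genes in each list (48.7 and 53.6). Arid3b is the highest in both lists, Setd3 and Chd7 lie far below the line for GFI1 and above it for GFI1B, and the corepressors have no blue point.

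Genes of the BAF complex were listed for both fusions and included an ATPase, a core subunit and the ARID subunits that define the complex. Smarca4, the gene of the ATPase BRG1, had 73.0 reads per kb with GFI1 and 59.9 with GFI1B. Its GFI1 interval (chromosome 9, 21425398 to 21426698) and its GFI1B interval (21494048 to 21495298) were 67.3 kb apart. Smarcc1, the gene of the core subunit BAF155, stood at 77.2 and 67.5 reads per kb, and its GFI1 interval (chromosome 9, 110071448 to 110073598) lay inside a GFI1B interval. Arid1a, a BAF subunit gene, stood at 66.9 and 85.5 reads per kb and carried an interval of 5401 bp for GFI1 and 5101 bp for GFI1B over the same place (chromosome 4, 133282314 to 133287414 for GFI1B). Arid1b, which encodes the alternative to that subunit, was at 37.04 and 39.97 reads per kb, below the median in both lists.

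Further BAF genes were in a single list. Smarce1 was listed for GFI1 alone (44.0 reads per kb), and Smarcb1 (46.0) and Smarca2, the gene of the alternative ATPase BRM (31.6), for GFI1B alone. All 3 lay below the median of their list. Smarcc2, Smarcd1, Smarcd2, Smarcd3 and Arid2 were in neither. Smarcad1, which encodes a remodeller outside BAF, was listed for both at 49.7 and 59.9 reads per kb, and both of its GFI1B intervals overlapped GFI1 intervals.

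Of the CHD remodeller genes, Chd2, Chd7 and Chd9 were listed for both fusions. Chd2 had 4 intervals in each list, at 43.1 reads per kb with GFI1 and 52.3 with GFI1B. A pair of them overlapped, and these were wide, at 3851 and 5801 bp for GFI1 and 4401 and 3701 bp for GFI1B (chromosome 7, 80681598 to 80696248 in all for GFI1B). Chd7, the gene mutated in CHARGE syndrome, stood at percentile 11.0 for GFI1 (32.1 reads per kb) and 84.1 for GFI1B (86.9). Chd9 had the opposite order, with percentile 70.7 for GFI1 (61.2 reads per kb) and 14.8 for GFI1B (36.0). Neither gene had an interval in common between the lists, and the nearest were 19.3 and 16.8 kb apart.

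Chd6 was listed for GFI1 alone (47.8 reads per kb) and Chd1 for GFI1B alone (34.0). Chd3, Chd4, the main NuRD remodeller, Chd5, Chd8 and Chd1l were in neither list. Arid5b, which encodes an ARID protein that works with the demethylase PHF2, carried the most intervals of any member, 6 for GFI1 and 7 for GFI1B, at 49.97 and 48.41 reads per kb. Of its GFI1 intervals 3 overlapped, among them an interval of 4201 bp that lay wholly inside a GFI1B interval of 4501 bp (chromosome 10, 67736671 to 67741171). Arid5a was listed for GFI1 alone (56.8) and Arid3a for GFI1B alone (35.0). The remaining genes in neither list were Arid3c, Arid4a, Smarca1, Smarca5, Smarcal1, Hltf and Hmg20b.

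Of the 6 Ncor, Sin3 and Ctbp genes, 4 were in the GFI1B list and 0 in the GFI1 list, against 19.1% and 18.4% of all protein-coding genes. Of 17 corepressor genes outside these families, the same 9 were listed for both fusions, against 11.0% of all protein-coding genes. Sin3a, the scaffold of the SIN3 deacetylase complex, had the highest value of the 4, at 88.2 reads per kb (percentile 84.9). Its interval on chromosome 9 (56922048 to 56923498) was also listed under 2700012I20Rik. Ctbp2, which encodes a CtBP corepressor, stood at 53.2 reads per kb over 3 intervals, and all 3 were listed under Fgfr2 as well. Ctbp1, of the same family, stood at 38.7 by 1 interval, which was under no other gene. Sin3a stood above the list's median, and Ctbp2 and Ctbp1 below it. None of their intervals overlapped a GFI1 interval of any gene, where 36.9% of all GFI1B intervals did. Absence of these genes from the GFI1 list makes such overlap unlikely from the outset. The nearest GFI1 interval was 11.1 kb away for Ctbp1, 14.8 kb for Sin3a and 59.3 kb for Ctbp2.

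The fusions were then set side by side over all members. Listed with GFI1 alone were 5 family genes (5.1%, against 7.41% of all protein-coding genes), and with GFI1B alone 14 (14.3%, against 8.13%). With 1 pooled list per fusion this difference could not be tested. Among entries at or above their list's median, each fusion had 16 family genes (16.3%, against 9.01% of all protein-coding genes for GFI1 and 9.53% for GFI1B). Of these genes 9 were in both (against 3.92% of all protein-coding genes), 7 for GFI1 alone (against 5.09%) and 7 for GFI1B alone (against 5.61%). Genes listed for GFI1B alone had a median of 45.8 reads per kb, from 31.6 to 88.2, and 4 of the 14 reached the list's median. Of the 22 genes listed for both, 12 reached it in the GFI1B list and 15 in the GFI1 list. Of the 5 listed for GFI1 alone, Arid5a reached the GFI1 median. In all, 12 of the 14 genes and 4 of the 5 rested on 1 interval. None of the 17 intervals of the first group or the 6 of the second overlapped any interval of the other list. This follows largely from how the groups were drawn, because an interval common to both lists would tend to list its gene for both.

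Genes listed for both fusions mostly shared a place, at about the share seen over all protein-coding genes in both lists. Of the 22, 17 had an interval of the GFI1 entry overlapping the GFI1B entry by at least 1 bp, and over all protein-coding genes in both lists this held for 76.9%. The 5 without overlap were Chd7, Chd9, Prdm1, Setd3 and Smarca4, with 16.7 to 77.6 kb between the nearest intervals. Of the 60 GFI1 intervals of members 28 (46.7%) overlapped a GFI1B interval, against 39.2% of all GFI1 intervals. Of the 70 GFI1B intervals 28 (40.0%) overlapped a GFI1 interval, against 36.9%. Across the 22 genes, reads per kb of the lists were related with Spearman's rho 0.28. Of the intervals of these genes, 28 of 54 for GFI1 (51.9%) and 28 of 53 for GFI1B (52.8%) overlapped the other list. The control of the lists may also be the same, so rho is a description only. Percentiles were higher for GFI1B in 11 and for GFI1 in 11.

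Members, which are long genes, often carried several intervals, and the part of length in this was not tested. In the GFI1 list 16 of 27 had 2 or more, against 27.9% of protein-coding entries, and 11 had 3 or more, against 10.5%. In the GFI1B list 19 of 36 had 2 or more, against 30.9%, and 10 had 3 or more, against 12.1%. Median interval width was 1326 bp for members and 1201 bp for all intervals of the GFI1 list, and 1476 and 1351 bp in the GFI1B list. The members' median was 52.4 reads per kb with GFI1 and 52.2 with GFI1B, beside 48.3 and 53.6 for all protein-coding entries. Without an interval of their own were 0 of 27 members in the GFI1 list (against 4.93% of protein-coding entries). In the GFI1B list these were 2 of 36 (against 7.80%), Sin3a and Ctbp2. Members with such an interval numbered 27 and 34 of the 98 family genes, against 17.5% and 17.7% of all protein-coding genes. For both fusions there were 22 (against 10.2%), for GFI1 alone 5 (against 7.32%) and for GFI1B alone 12 (against 7.49%).

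**Figure D3:**
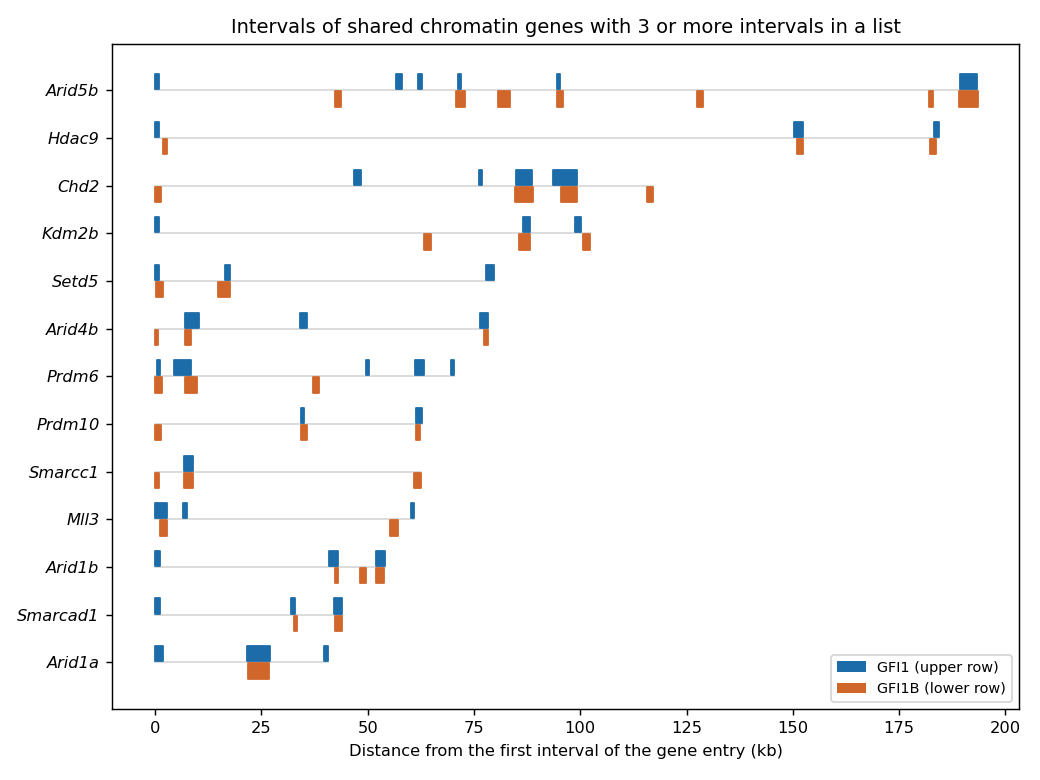
Intervals of the 13 genes that were listed for both fusions and had 3 or more intervals in either list, drawn to scale as kb from the first interval of the gene, with GFI1 above the line and GFI1B below it. Arid1a, Chd2 and Arid5b show wide intervals at the same place in both lists, beside narrower intervals found for 1 fusion.

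The intervals of a gene were often far apart. Those of Arid5b spread over 193.5 kb for GFI1 and 151.3 kb for GFI1B, beside a RefSeq gene length of 186.8 kb, and those of Hdac9 over 184.5 and 182.0 kb of a gene of 869.5 kb. A spread wider than the gene means that some interval lay outside it, as far as the GRCm38.p6 length holds for mm9. This was so for 3 of 16 members with several intervals in the GFI1 list (Arid3b, Arid5b and Setd5), against 14.6% of such entries, and for 2 of 19 in the GFI1B list (Arid3b and Chd2), against 17.6%. Arid3b, with the same spread of 58.5 kb in both lists beside a gene of 46.5 kb, exceeded its length the most. Positions relative to exons and introns would need an mm9 annotation, which was not used here.

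Gene length moved with listing. The family's median length was 60.2 kb, against 17.1 kb for all protein-coding genes. Members had a median of 88.1 kb and the 57 other family genes 39.5 kb. Among genes over 57.1 kb, which are length deciles 9 and 10, the GFI1 list held 23 of 50 family genes (46.0%) and 43.8% of all protein-coding genes. For GFI1B these values were 30 of 50 (60.0%) and 44.1%. Among genes of 17.1 to 57.1 kb, the GFI1 list held 3 of 38 family genes (7.89%, against 18.9%) and the GFI1B list 6 (15.8%, against 20.2%). Of 10 shorter family genes the GFI1 list held 1 (against 7.87% of all such genes) and the GFI1B list 0 (against 8.45%). These family counts by length leave out Mecom and Kdm7a, which were listed under symbols outside the rule. Weighting each length decile by the family's number of genes in it gave a background of 30.6% for GFI1 and 31.3% for GFI1B, beside the family's 27.6% and 36.7%. That background counts a gene under any symbol, and so counted the family's shares were 29.6% for GFI1 and 38.8% for GFI1B. On either count the family's share lay below the background for GFI1 and above it for GFI1B. These gaps were not tested.

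**Figure D4:**
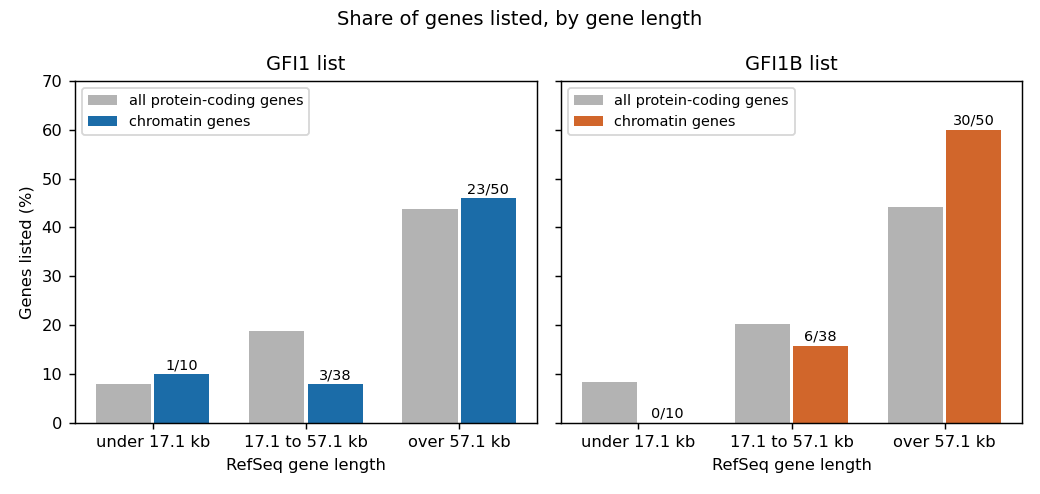
Percent of genes listed for GFI1 (left) and GFI1B (right) by RefSeq gene length, for all protein-coding genes (grey) and chromatin genes (coloured, with the number listed over the number of genes above the bar). Mecom and Kdm7a, listed under symbols outside the rule, count as not listed in the coloured bars. The grey bars grow with length in both lists, and gaps of more than 10 points between the bars go both ways. In the GFI1B list over 57.1 kb the chromatin genes exceed the grey bar, at 60.0% against 44.1%. In the GFI1 list at 17.1 to 57.1 kb they lie below it, at 7.89% against 18.9%.

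Other chromatin genes, 144 in 8 lists of complexes and enzymes outside these families, were listed in 57 cases (39.6%) for GFI1, 51 (35.4%) for GFI1B and 38 (26.4%) for both. Over all protein-coding genes these shares were 18.4%, 19.1% and 11.0%. Median length was 42.3 kb for the 144 genes and 17.1 kb for all protein-coding genes. The counts for GFI1 and GFI1B were 9 and 9 of 25 Polycomb genes, 5 and 7 of 15 NuRD and SIN3 subunit genes, 5 and 6 of 14 histone acetyltransferase genes, and 12 and 7 of 23 further histone methyltransferase genes. They were 4 and 2 of 13 further demethylase and sirtuin genes, 10 and 7 of 26 further remodelling genes, and 3 and 4 of 11 DNA methylation genes. Of 17 further corepressor genes, the same 9 were listed for both fusions, beside the 0 and 4 of 6 Ncor, Sin3 and Ctbp genes. Pbrm1, which encodes the subunit that defines the PBAF form of the BAF complex, stood above every member, at 216 reads per kb with GFI1 and 173 with GFI1B. Rere, a corepressor gene, carried 13 and 12 intervals, more than any member.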

How the data were processed

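The authors deposited 1 gene list per fusion from pooled replicates, and the control entered only as the authors used it. Each list was assigned to its fusion by worksheet name. Per the file headers, the GFI1B list came from BayesPeak and a method written SS at a threshold of 0.05, with lanes merged and control reads subtracted before SS. The GFI1 header stops after BayesPeak, so for that list the threshold, any subtraction and, for both, the aligner were not given in the sources used here. Per the submitters' processing notes, coordinates are on mm9. The read number deposited by the authors was handled as a score because control reads may have been taken off. Reads per kb, the deposited signal, divides it by the summed interval length, and recomputing it gave the value within 0.0051 in all 5238 and 5327 entries.

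Members, classes and comparison lists were chosen with earlier results of these data known, and the length groups after the files were seen. Symbols were matched to RefSeq (GRCm38.p6, 49997 genes, 21900 protein-coding) by symbol and then by unambiguous synonym, which placed 4633 and 4745 entries and all 41 members. RefSeq gave names, lengths and promoters, never coordinates of intervals. Of the 98 family genes 9 came by synonym. Overlap meant at least 1 bp. Values in full went to corepressors, in other classes to the 5 strongest members of each list, members with 3 or more intervals and those with the largest rank changes. Some genes are counted in the totals but not reported here by name. No statistical test was made. Alternatives were stronger entries only, entries with an interval of their own, symbols only, length deciles, 50% overlap, gene identifiers, removal of DNA-binding families and read number. The overlap, ownership and class steps were tested on simulated intervals in Python 3.11.15 with pandas 2.3.3. Figures used matplotlib 3.10.9.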

Additional observations from a re-analysis of the deposited data

How the results depend on the processing

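With only entries at or above their list's median reads per kb, members listed fell to 16 for GFI1, 16 for GFI1B and 9 for both, 16.3% of the family for each fusion, against 9.01% and 9.53% of all protein-coding genes. GFI1B alone then held 7 and GFI1 alone 7. By class this left 4 and 6 writers, 3 and 2 erasers, 9 and 7 remodellers and 0 and 1 corepressors (GFI1 and GFI1B). This setting keeps fewer entries by construction. The higher number of members for GFI1B was not seen among these stronger entries. Requiring an interval of no other gene left 2 corepressors for GFI1B and kept every other count within 1.5 times. Leaving out Prdm, Arid3 and Arid5 genes gave 5 writers for each fusion, and 11 remodellers for GFI1 and 12 for GFI1B, with fewer genes in each class. The background weighted by length decile was 30.6% for GFI1 and 31.3% for GFI1B in place of 18.4% and 19.1%. Ranked by read number in place of reads per kb, the members' median percentile was 81.9 in place of 57.2 for GFI1 and 68.4 in place of 47.6 for GFI1B, and read number adds up over intervals. Counting family genes listed under any symbol, a choice made after seeing the data, gave 29.6% and 38.8%. Symbols only (29.2% and 38.2%), gene identifiers (22 shared) and 50% overlap (17 genes) changed little. No paired analysis was possible because each fusion has 1 pooled list. For the same reason no replicate could be left out, and depth is unknown.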
